A study of Homo sapiens with 12 samples.

Results

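The IL-6 family is described here by 9 genes, 4 that encode cytokines (IL11, LIF, IL6 and CLCF1) and 5 that encode receptors (IL6ST, OSMR, LIFR, IL11RA and IL6R), out of 58735 genes in the count table. The 9 genes were chosen by family membership with the measured levels of these 12 libraries known, and which of these values weighed in the choice is not recorded, so levels and differences of these 9 genes are given as a description. No p-value is given for them. Where the number of them past a threshold is printed, nothing is read from it. The share of all genes stands beside it, except for some alternative fits. The cells were FDX2-iKO ES2 cells, an ovarian carcinoma line in which the endogenous gene for the mitochondrial ferredoxin FDX2 had been knocked out by genome editing while an editing-resistant, HA-tagged FDX2 was expressed under a doxycycline (Doxy)-dependent TetON system. Poly(A) RNA was sequenced in 4 conditions with 3 biological replicates each: 20% O2 + Doxy and 20% O2 wo Doxy (6 days of culture with or without Doxy at 20% O2), and 3% O2 + Doxy and 3% O2 wo Doxy (4 days of preculture at 20% O2, then 3 days at 3% O2). FDX2 is thus kept in the + Doxy cells and lost in the wo Doxy cells, whose comparison at each O2 concentration asks how FDX2 loss altered gene expression and whether low oxygen altered that response. All 12 libraries carried the edited gene and the transgene, the study worked with 1 clone unless it stated otherwise, effects of Doxy itself cannot be told apart from those of FDX2 expression, and the 3% O2 cells were also cultured for longer than the 20% O2 cells, so oxygen and culture time cannot be told apart.

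Cytokines of the IL-6 family signal through gp130, the transmembrane protein encoded by IL6ST, which pairs with a ligand-specific partner. IL-6 and IL-11 first bind the alpha receptors IL6R and IL11RA and then a pair of gp130 chains, LIF signals through gp130 with LIFR, CLCF1 through the same pair together with CNTFR, and oncostatin M through gp130 with OSMR or LIFR. The receptor complex activates JAK kinases and STAT3, which induces its own inhibitor SOCS3, and in tumors these cytokines are known as secreted factors that act on the producing cell or on its neighbours.

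Library totals ran from 24958386 to 34313637 counts (median 29621780), and 16891 genes passed the filter on low counts. FDX2 itself had 2 to 13 counts per library (5, 2 and 6 in 20% O2 + Doxy, 9, 13 and 4 in 20% O2 wo Doxy, 2, 4 and 12 in 3% O2 + Doxy, and 7, 7 and 5 in 3% O2 wo Doxy), so FDX2 loss could not be checked in these counts. Of the exonic bases of FDX2, 70.9% are shared with other genes on the same strand, so reads from there cannot be assigned to FDX2 alone. The carcinoma keratins KRT7, KRT8 and KRT18 had 1472 to 21175 counts per library and PAX8 172 to 596, whereas the epithelial and ovarian carcinoma markers EPCAM, KRT19 and MUC16 had at most 3. The leukocyte markers stayed at or below 7 counts, as did the endothelial markers PECAM1 and VWF, but the third endothelial marker, CDH5, had 656 to 1412. In 3 libraries, replicate 1 of 20% O2 + Doxy, replicate 3 of 3% O2 + Doxy and replicate 2 of 3% O2 wo Doxy, transcripts of 60.8% GC stood 0.40, 0.45 and 0.41 higher on the log2 scale against transcripts of 38.2% GC than in the average library. The trend was below 0 in the 3 libraries of 20% O2 wo Doxy (-0.34 to -0.19) and in the other 2 libraries of each condition with Doxy (-0.29 to -0.11), and it was 0.04 and 0.13 in the other 2 libraries of 3% O2 wo Doxy. IL6ST (36.6% GC) and LIFR (36.2%) lie at the low end of transcript GC content, and IL11 (55.6%), LIF (56.9%), IL11RA (56.6%) and CLCF1 (57.1%) above the median of protein-coding genes (49.1%). Values that depend on this trend are given beside the results they touch. In bulk RNA, a lower level in every cell and fewer cells with the transcript cannot be told apart.

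RefSeq promoter entries (GRCh38.p14, 250 bases before to 50 bases after a start site) were matched for 7 of the 9 genes, in 10 entries. The 250 bases before the start site are shown for the cytokine gene that differed most between conditions (IL11), the shared receptor (IL6ST), the receptor gene with a STAT motif (LIFR, the most upstream of its 3 entries) and the cytokine that names the family (IL6). They lie at chr19:55370464-55370713, minus strand, chr5:55994964-55995213, minus strand, chr5:38595406-38595655, minus strand, and chr7:22726950-22727199, plus strand, and capitals mark motif matches.
IL11: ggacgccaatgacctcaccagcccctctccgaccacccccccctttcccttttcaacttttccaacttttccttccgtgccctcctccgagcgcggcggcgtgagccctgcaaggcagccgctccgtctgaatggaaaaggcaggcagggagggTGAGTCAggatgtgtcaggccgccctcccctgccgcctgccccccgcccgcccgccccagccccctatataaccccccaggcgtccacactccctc
IL6ST: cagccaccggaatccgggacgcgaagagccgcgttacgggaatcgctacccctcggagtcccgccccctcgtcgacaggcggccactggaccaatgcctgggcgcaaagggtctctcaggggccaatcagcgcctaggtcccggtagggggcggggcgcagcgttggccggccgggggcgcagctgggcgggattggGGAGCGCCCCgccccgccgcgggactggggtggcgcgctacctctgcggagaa
LIFR: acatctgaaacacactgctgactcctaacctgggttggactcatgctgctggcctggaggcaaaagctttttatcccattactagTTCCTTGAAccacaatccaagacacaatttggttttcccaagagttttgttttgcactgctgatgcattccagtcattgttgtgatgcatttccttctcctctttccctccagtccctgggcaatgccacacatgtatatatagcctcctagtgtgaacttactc
IL6: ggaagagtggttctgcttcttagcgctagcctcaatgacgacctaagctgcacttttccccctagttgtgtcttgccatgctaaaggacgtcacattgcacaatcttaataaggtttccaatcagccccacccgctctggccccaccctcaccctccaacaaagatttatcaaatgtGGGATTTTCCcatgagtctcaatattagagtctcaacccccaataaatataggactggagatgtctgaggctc
The motifs were searched on both strands as letters, N being any base: AP-1 as TGANTCA (found in 7.71% of all 35116 promoters of this length), STAT as TTCNNNGAA (7.66%), the ATF4 element as TGATGNAA (3.62%), the core of the hypoxia-responsive (HIF) element as ACGTG (21.4%), and NF-kB by its 10-base consensus (11.3%). In IL11 the capitals are TGAGTCA, an AP-1 match from -96 to -90, counting the start site as 1 and the base before it as -1. In IL6ST they are an NF-kB match on the reverse strand from -53 to -44, in IL6 an NF-kB match from -73 to -64, and in LIFR a STAT match from -165 to -157. Within the 50 bases after the start, the same LIFR entry held a HIF match (24 to 28), OSMR an AP-1 match (4 to 10) and a HIF match (35 to 39), and IL6R an AP-1 match (38 to 44). Of the entries not shown, another of LIFR held a STAT match (-182 to -174) and a HIF match (-159 to -155), and 1 of IL11RA an NF-kB match (-96 to -87). The ATF4 element was found in none of the 10 entries. A match only says that these letters are present.

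Per kb of exon, OSMR (a mean of 19.7 CPM per kb over the 12 libraries, CPM being counts scaled to the library size), LIF (19.3), IL6ST (14.4) and IL11 (13.9) were the most abundant of the 9 transcripts, followed by CLCF1 (3.70) and LIFR (2.37). IL11RA (0.245), IL6 (0.163) and IL6R (0.117) lay far below. Thus these cells carried mRNA for LIF together with both chains of its receptor, and for OSMR with little oncostatin M mRNA (at most 3 counts in any library). The order of the most abundant 4 differed between conditions: in 20% O2 wo Doxy the means were 30.7 CPM per kb for IL11, 25.7 for LIF, 20.4 for OSMR and 18.1 for IL6ST, whereas IL11 had 6.99 to 9.75 in the other 3 conditions, below LIF, OSMR and IL6ST. By contrast, mRNA for the alpha receptors of IL-6 and IL-11 was scarce beside that of gp130.

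**Figure D1:**
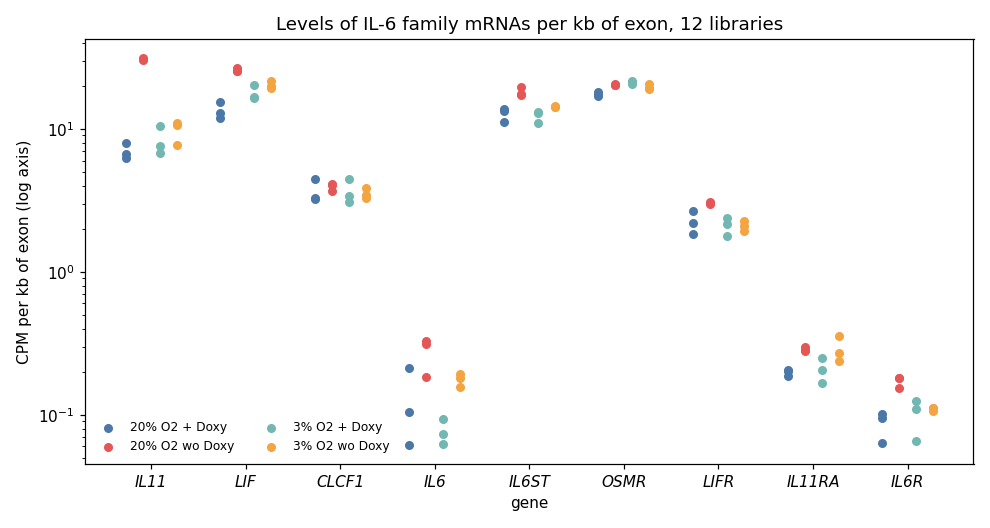
CPM per kb of exon (log axis) for each of the 9 genes, 1 point per library, colored by condition. OSMR, LIF, IL6ST and IL11 averaged 13.9 to 19.7 over the 12 libraries, whereas IL11RA, IL6 and IL6R averaged 0.117 to 0.245.

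Of the 9 genes, 3 were too low to read, here meaning fewer than 50 counts in every library: IL6 (4 to 21 counts), IL6R (13 to 37) and IL11RA (22 to 39, the nearest to the limit). The 6 genes that were read had 170 to 5570 counts, with CLCF1 the lowest. All 9 passed the filter on low counts, but IL6 reached 10 counts in all 3 libraries only in 20% O2 wo Doxy, the condition with its highest mean.

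IL11 encodes interleukin-11, a gp130 cytokine of stromal and tumor cells (ENSG00000095752, chr19:55364389-55370463, minus strand, GRCh38). Levels in CPM are given after scaling of the libraries by the trimmed mean of M values. In 20% O2 + Doxy the 3 libraries had 21.4, 16.8 and 17.8 CPM, and in 20% O2 wo Doxy 81.7, 83.4 and 81.2. In 3% O2 + Doxy they had 18.1, 20.2 and 27.8 CPM, and in 3% O2 wo Doxy 20.6, 28.4 and 29.2. The libraries of FDX2-depleted cells at 20% O2 thus stood apart from the other 9, which overlapped one another across 3 conditions. Mean levels were 18.7 ± 2.40, 82.1 ± 1.16, 22.0 ± 5.12 and 26.0 ± 4.75 CPM in that order (SD, n = 3). The fitted difference, without against with Doxy, was 2.13 on the log2 scale (SE 0.169, 4.39-fold) at 20% O2 and 0.24 (SE 0.166) at 3% O2. The difference between these 2 responses, 3% minus 20%, was -1.89 (SE 0.235), and without Doxy the level at 3% O2 was lower than at 20% by 1.65 log2 units (-1.65, SE 0.166). The small value at 3% O2 depended on the library, ranging from 0.11 without replicate 1 of 3% O2 + Doxy to 0.45 without replicate 3, the library with a GC trend.

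LIF encodes leukemia inhibitory factor, which signals through LIFR and gp130 (ENSG00000128342, chr22:30240447-30246851, minus strand). Its libraries had 61.7, 51.3 and 47.5 CPM in 20% O2 + Doxy and 100.4, 101 and 105 in 20% O2 wo Doxy. They had 65.4, 65.9 and 81.0 CPM in 3% O2 + Doxy and 76.5, 86.2 and 79.2 in 3% O2 wo Doxy. FDX2-depleted cells at 20% O2 again carried the highest levels, but the other 3 conditions did not fall together as they did for IL11: the lowest was 20% O2 + Doxy, and both conditions at 3% O2 lay in between and overlapped each other. Condition means were 53.5 ± 7.34, 102 ± 2.52, 70.8 ± 8.87 and 80.6 ± 5.02 CPM (SD, n = 3). On the log2 scale, the difference with FDX2 loss was 0.93 (SE 0.105) at 20% O2 and 0.19 at 3% O2, the latter being smaller by 0.75 (-0.75, SE 0.148). The difference between 3% and 20% O2 was 0.40 in the presence of Doxy and -0.34 in its absence. The last value was -0.56 once the GC trend of each library was taken out.

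CLCF1 encodes cardiotrophin-like cytokine factor 1 (ENSG00000175505, chr11:67364168-67374177, minus strand). Its libraries had 8.79, 6.34 and 6.50 CPM in 20% O2 + Doxy, 8.18, 7.998 and 7.31 in 20% O2 wo Doxy, 6.05, 6.65 and 8.79 in 3% O2 + Doxy, and 6.84, 7.66 and 6.46 in 3% O2 wo Doxy. The 4 conditions overlapped, with means from 6.99 to 7.83 CPM, and the highest library with Doxy at each O2 concentration was the one with a GC trend. Its fitted differences lay between -0.17 and 0.12 on the log2 scale in the 4 comparisons.

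IL6, the cytokine that gives the family its name (ENSG00000136244, chr7:22725884-22732002, plus strand), had 4, 6 and 15 counts in 20% O2 + Doxy, 21, 12 and 20 in 20% O2 wo Doxy, 6, 4 and 4 in 3% O2 + Doxy, and 8, 10 and 12 in 3% O2 wo Doxy. At these counts the fitted difference at 20% O2 (1.09, SE 0.407) moved to 0.75 without replicate 1 of 20% O2 + Doxy and to 1.70 without replicate 3, and no difference between conditions is read from it. Moreover, 20.7% of its exonic bases are shared with transcripts on the opposite strand, and the strand setting of the read counting is not given in the sources used here.

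IL6ST encodes gp130 (ENSG00000134352, chr5:55935095-55994993, minus strand). Its libraries had 104, 123 and 129 CPM in 20% O2 + Doxy and 164, 159.7 and 181 in 20% O2 wo Doxy. They had 121, 121 and 103 CPM in 3% O2 + Doxy and 132, 131 and 134 in 3% O2 wo Doxy. At each O2 concentration the libraries without Doxy lay above those with Doxy, by a wider margin at 20% O2, and the 2 conditions with Doxy overlapped. Means were 119 ± 12.9, 168 ± 11.3, 115 ± 10.5 and 132 ± 1.59 CPM (SD, n = 3). The difference with FDX2 loss was 0.50 (SE 0.0883) on the log2 scale at 20% O2 and 0.21 at 3% O2, and the difference between 3% and 20% O2 without Doxy was -0.35. In this AT-rich transcript the lowest library of each condition with Doxy was the one with a GC trend, and taking the trends out left -0.18 between 3% and 20% O2 without Doxy.

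OSMR encodes the oncostatin M receptor chain (ENSG00000145623, chr5:38845858-38945596, plus strand). Its libraries had 121, 127 and 129.7 CPM in 20% O2 + Doxy and 146, 145 and 148 in 20% O2 wo Doxy. They had 148, 154 and 156 CPM in 3% O2 + Doxy and 136, 138 and 149 in 3% O2 wo Doxy. Its order thus differed from that of IL11, LIF and IL6ST: the highest mean was in FDX2-proficient cells at 3% O2 and the lowest in FDX2-proficient cells at 20% O2. Means were 126 ± 4.34, 146 ± 1.33, 153 ± 3.86 and 141 ± 6.53 CPM (SD, n = 3), a small spread and a small range. With FDX2 loss the difference was 0.22 (SE 0.049) on the log2 scale at 20% O2 and -0.11 at 3% O2, and with Doxy the difference between 3% and 20% O2 was 0.28.

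LIFR encodes the LIF receptor chain (ENSG00000113594, chr5:38474963-38608354, minus strand), 237504 bases from OSMR. Its libraries had 21.7, 26.1 and 31.6 CPM in 20% O2 + Doxy and 35.2, 36.5 and 36.2 in 20% O2 wo Doxy. They had 25.7, 28.3 and 20.9 CPM in 3% O2 + Doxy and 23.0, 24.7 and 26.9 in 3% O2 wo Doxy. Only the libraries of 20% O2 wo Doxy stood above all others, and the other 3 conditions overlapped, with means of 26.4 ± 4.97, 36.0 ± 0.647, 25.0 ± 3.75 and 24.9 ± 1.96 CPM (SD, n = 3). The difference was 0.44 (SE 0.134) on the log2 scale at 20% O2 and -0.01 at 3% O2. As for IL6ST, the lowest library of each condition with Doxy carried the GC trend, and without replicate 1 of 20% O2 + Doxy the value at 20% O2 was 0.30.

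The alpha receptors were near the limit of detection. IL6R (ENSG00000160712, chr1:154405193-154469450, plus strand) had 19, 18 and 14 counts in 20% O2 + Doxy, 31, 37 and 36 in 20% O2 wo Doxy, 13, 21 and 22 in 3% O2 + Doxy, and 18, 18 and 22 in 3% O2 wo Doxy. IL11RA (ENSG00000137070, chr9:34650702-34661892, plus strand) had 25, 24 and 30 counts, 38, 38 and 39, 27, 28 and 22, and 25, 38 and 37 in the same order. Both had their highest mean in 20% O2 wo Doxy, but for IL11RA that mean (1.23 ± 0.0343 CPM) and that of 3% O2 wo Doxy (1.22 ± 0.258 CPM, SD, n = 3) differed by less than the spread. In addition, 17.4% of the exonic bases of IL11RA are shared with GALT and AL162231.3 on the same strand, and reads from there cannot be assigned to it alone.

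**Figure D2:**
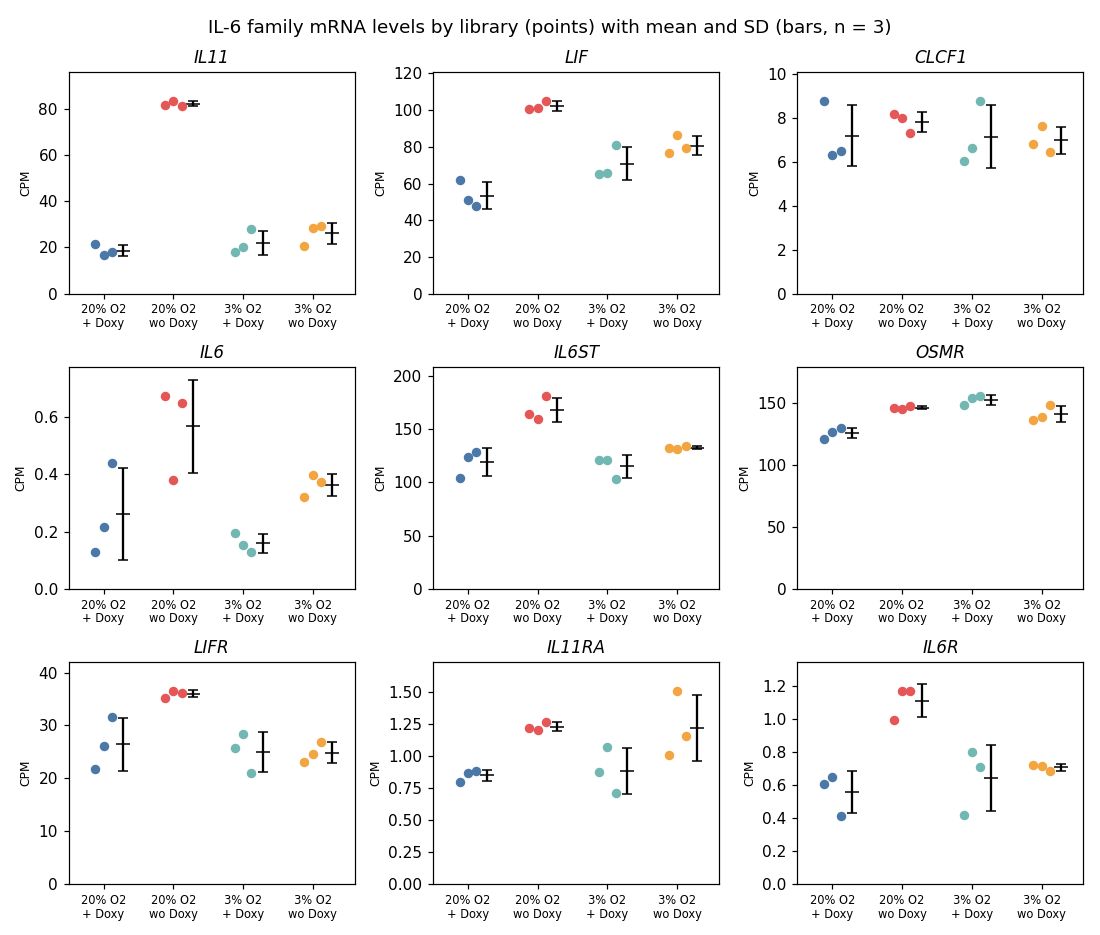
CPM of each of the 9 genes in every library (points, colored by condition), with the mean and SD of the 3 libraries as black bars; each axis starts at 0. IL11, LIF, IL6ST and LIFR stood highest in 20% O2 wo Doxy, OSMR in 3% O2 + Doxy, and the conditions overlapped for CLCF1; IL6, IL11RA and IL6R lie near or below 1.5 CPM.

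The fitted difference with FDX2 loss at 20% O2 was above 0 for each of the 6 genes that were read. Of the 9 genes, 6 (IL11, LIF, IL6ST, LIFR, OSMR and IL6R, the last too low to read) were higher at an adjusted p under 0.05 in the quasi-likelihood test of edgeR, adjusted by Benjamini-Hochberg over all tested genes. In that comparison 35.3% of the 16891 tested genes passed in either direction and 17.6% in the upward direction. The count was 4 without replicate 3 of 20% O2 wo Doxy, where LIFR and OSMR dropped out, and 9 after the GC trends were taken out, a correction chosen after the data had been seen. The share of all genes under that correction is not given here. At 3% O2, none of the 9 passed the same test, where 7.31% of all genes did, and DESeq2 called 1 (OSMR, which was lower without Doxy). There 4 of the 9 had an unadjusted p under 0.05 in edgeR's test, as did 3901 of the 16891 tested genes. The median difference of the 6 genes that were read was 0.47 at 20% O2 and 0.09 at 3% O2, beside 0.01 and 0.04 over all tested genes.

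Between 3% and 20% O2, the median difference of the 6 genes that were read was 0.11 with Doxy and -0.34 without Doxy, beside -0.0045 and 0.07 over all tested genes. Without Doxy, 4 genes (IL11, LIF, IL6ST and LIFR) were lower at 3% O2 past the threshold of the same test, with a background of 25.8% of all genes in either direction and 11.9% in the lower direction. IL11 alone passed without replicate 3 of 20% O2 wo Doxy or without replicate 2 of 3% O2 wo Doxy, and LIF did not pass with the replicate number as a block. With Doxy, OSMR alone passed, being higher at 3% O2, where 2.02% of all genes did and 1.63% in that direction, and no member passed without replicate 2 of either condition. The difference between the responses at 3% and 20% O2 was below 0 for each of the 6 genes that were read and past the threshold for IL11, LIF and OSMR, beside 7.29% of all genes in either direction and 4.08% in the lower direction. These comparisons share libraries (20% O2 wo Doxy enters 3 of the 5), so they are not independent of one another.

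**Figure D3:**
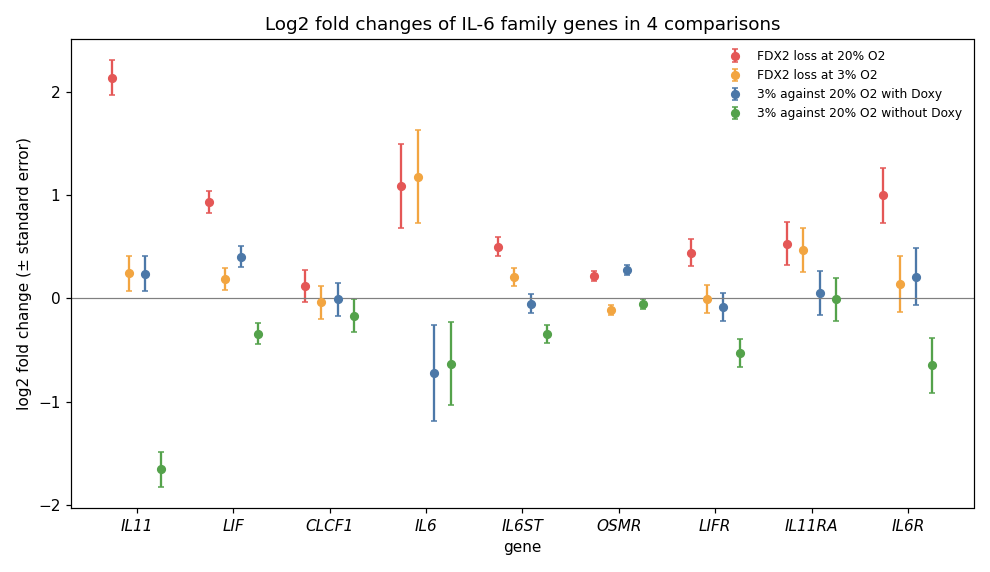
Log2 fold changes (points) with their standard errors (bars) for the 9 genes in 4 comparisons: FDX2 loss (wo Doxy against + Doxy) at 20% and at 3% O2, and 3% against 20% O2 with and without Doxy. IL11 has the largest values, 2.13 with FDX2 loss at 20% O2 and -1.65 between 3% and 20% O2 without Doxy; the bars of IL6 and IL6R are wide because their counts are low.

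AU-rich elements mark cytokine mRNAs for rapid decay, and the transcripts differ in the number of ATTTA pentamers, the letters counted here. A pentamer only says that these letters are present, and decay was not measured. The pentamer ATTTA occurred 9 times in the 3′ end (the bases after the stop codon) of IL11, 7 times in LIF, 6 times in IL6, 4 times in CLCF1, 23 times in IL6ST, 29 times in LIFR, 8 times in OSMR and 6 times in IL6R, and was not found in IL11RA. The median over 17900 protein-coding genes was 1, but a longer 3′ end holds more pentamers: per kb, IL6 had 14.0, IL11 5.56, LIFR 4.37, CLCF1 4.13, IL6ST 3.84, OSMR 3.64, LIF 2.18 and IL6R 1.47, beside a median of 1.504. The 3′ end of IL11RA is 383 bases long.

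Genes whose levels followed those of a member most closely were sought among 10759 genes of at least 5 CPM, by the root mean square difference of log2 CPM over the 12 libraries after each gene was centred on its mean. For IL11 the closest was SESN2, a stress-inducible sestrin, with a root mean square difference of 0.158. Its mean level was 14.3 CPM in 20% O2 + Doxy, 47.8 in 20% O2 wo Doxy, 15.01 in 3% O2 + Doxy and 18.2 in 3% O2 wo Doxy. The next were APOL6 (0.246) and PAPPA2 (0.247), a pappalysin that cleaves IGF-binding proteins. For LIF they were FTL (0.0839), the light chain of ferritin, UPP1 (0.0866), a uridine phosphorylase, and CRISPLD2 (0.0866). For IL6ST they were FNIP1 (0.0309), SEMA3C (0.0336) and RAB8B (0.0404), for LIFR CLIC4 (0.0707), UFM1 (0.0747) and ZMAT3 (0.0760), and for CLCF1 TRMT1 (0.0684), BBLN (0.0685) and TIMM44 (0.0731). For OSMR, ETS1 (0.0593) and KAT6B (0.0604) were among the closest 3. The closest genes of IL11 differ from it by more than those of the other members, while IL11 itself spanned 2.31 log2 units over the libraries against 0.36 for OSMR. All these genes share the same libraries with the member, their depth and their GC trends included.

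**Figure D4:**
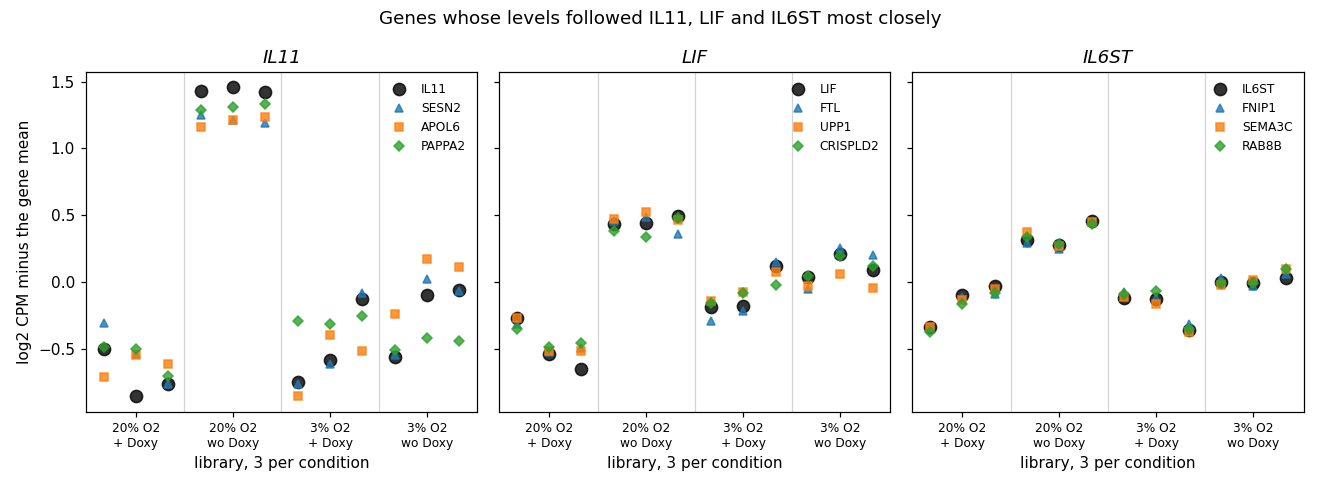
Log2 CPM minus the mean of the gene for IL11, LIF and IL6ST (black) and the 3 genes most like each (colored), 1 point per library and gene, with the 3 libraries of each condition side by side. SESN2, APOL6 and PAPPA2, like IL11, have their highest mean level in 20% O2 wo Doxy. At 3% O2 the mean without Doxy lies above that with Doxy for IL11, SESN2 and APOL6 and below it for PAPPA2.

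Other members of the family were mostly silent. Of 10 further cytokine and receptor genes, 6 had at most 10 counts in every library, among them OSM, CTF1 and CNTFR, the last with 0 throughout. EBI3, a subunit of the heterodimeric cytokines IL-27 and IL-35, had 0 counts in the 6 libraries with Doxy, 4, 9 and 6 in 20% O2 wo Doxy and 1, 2 and 2 in 3% O2 wo Doxy, which is too low to read. CNTF, which signals through gp130 and LIFR, fell at 20% O2 upon FDX2 loss, a change of -0.82 on the log2 scale between means of 1.42 ± 0.174 and 0.803 ± 0.181 CPM (SD, n = 3, adjusted p = 0.00901 by edgeR). Its counts were 39, 44 and 48 with Doxy and 23, 21 and 31 without, under the 50 counts set above for reading a level. In addition, 38.6% of its exonic bases are shared with another gene on the same strand, so reads from there cannot be assigned to CNTF alone. IL31RA, a gp130-like chain that pairs with OSMR as the receptor for IL-31, was well expressed (1312 to 1984 counts) and rose at 3% O2 upon FDX2 loss by 0.21 on the log2 scale (adjusted p = 0.0421 in the same edgeR test). That call was lost in 5 of 6 fits that each left out 1 library, and IL31 itself had 0 counts in every library.

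The counts of pathway genes that follow stand against 35.3% of all tested genes past the threshold in either direction with FDX2 loss at 20% O2 and 7.31% at 3% O2. At 20% O2, 5961 of the 16891 tested genes passed, 2971 of them upward (17.6% of all tested genes) and the rest downward. At 3% O2, 3901 of the tested genes had an unadjusted p under 0.05 in edgeR's test. The signal transducers were present throughout, and most did not pass the test. STAT3, the main effector of gp130, had means of 57.4 ± 1.46, 60.1 ± 1.18, 60.9 ± 5.54 and 57.4 ± 2.11 CPM in 20% O2 + Doxy, 20% O2 wo Doxy, 3% O2 + Doxy and 3% O2 wo Doxy (SD, n = 3), and its log2 fold change with FDX2 loss was 0.07 (SE 0.0643) at 20% O2 and -0.09 (SE 0.0645) at 3% O2. JAK1 ranged from 213 to 221 CPM over the condition means. JAK2 had a log2 fold change of 0.29 (SE 0.119) at 20% O2, with an adjusted p of 0.0836 in the edgeR test. Of the 9 transducer genes, 2 rose at 20% O2 and none fell. Among these was STAT5A, a STAT that many cytokine receptors activate (0.52, adjusted p = 0.000825 by edgeR). STAT5A also rose at 3% O2 (0.45, adjusted p = 0.0114 by edgeR), a call lost without replicate 2 of 3% O2 + Doxy and in a fit to the 6 libraries at 3% O2. The median of the list was 0.07 at 20% O2, against 0.01 over all genes.

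Of 9 tested genes for inhibitors of the pathway, 4 fell upon FDX2 loss at 20% O2 and none rose. After the GC trends were taken out, 4 were lower and 2, SOCS3 and PTPN2, higher. The share of all tested genes after that step is not given here, so nothing is read from these counts. SOCS1, which blocks JAK kinases, had 67, 39 and 39 counts in 20% O2 + Doxy and 15, 17 and 17 in 20% O2 wo Doxy, and 68, 54 and 124 against 42, 61 and 68 at 3% O2. It fell by 1.57 on the log2 scale at 20% O2 (SE 0.320, adjusted p = 0.00303 by edgeR), and with an estimate of -0.41 at 3% O2 it did not pass. Its transcript is GC-rich (69.1%), and the highest libraries with Doxy at each O2 concentration were those with a GC trend. The groups at 20% O2 did not overlap, and its log2 fold change was -1.29 without replicate 1 of 20% O2 + Doxy and -1.15 after the GC trends were taken out. SOCS2 (-0.49, adjusted p = 0.000448), the phosphatase gene PTPN1 (-0.28, adjusted p = 0.000692) and the adaptor gene SH2B3 (-0.37, adjusted p = 0.011) also fell at 20% O2 in edgeR's test. At 3% O2 none of these inhibitors passed, with 1 at an unadjusted p under 0.05 and 1, SOCS3, called by DESeq2.

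SOCS3, the feedback inhibitor that gp130 signaling induces, was measured at 33.0 ± 6.55 CPM in 20% O2 + Doxy, 36.3 ± 1.29 in 20% O2 wo Doxy, 31.4 ± 5.98 in 3% O2 + Doxy and 44.4 ± 4.09 in 3% O2 wo Doxy (SD, n = 3). Its log2 fold change with FDX2 loss was 0.14 (SE 0.149, adjusted p = 0.517) at 20% O2 and 0.50 (SE 0.15, adjusted p = 0.0687) at 3% O2 in edgeR's test. Libraries with a GC trend were the highest of both conditions with Doxy and of 3% O2 wo Doxy (48.9 CPM, against 40.9 and 43.5). SOCS3 passed at both O2 concentrations after the trends were taken out or the 3 libraries were left out. Whether SOCS3 passed thus depended on how these libraries were treated.

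Among 15 known STAT3 target genes, 5 rose and 1 fell upon FDX2 loss at 20% O2. Together this is a share near that of all tested genes in either direction (35.3%), while 17.6% of all tested genes passed upward. The largest change was in BCL6, a transcriptional repressor, with 483, 408 and 489 counts in 20% O2 + Doxy, 1141, 1191 and 1117 in 20% O2 wo Doxy, 462, 397 and 569 in 3% O2 + Doxy and 590, 579 and 679 in 3% O2 wo Doxy. It rose by 1.31 on the log2 scale at 20% O2 (SE 0.0809, adjusted p = 9.59e-07) and by 0.48 at 3% O2 (SE 0.0811, adjusted p = 0.00575) in edgeR's test, and the 2 responses differed by -0.83 (adjusted p = 0.0022 by edgeR). The call at 3% O2 was lost in a fit to the 6 libraries at 3% O2. TIMP1, an inhibitor of metalloproteinases, rose by 0.50 on the log2 scale at 20% O2 (adjusted p = 0.00117 by edgeR), the means being 120.0 ± 3.95 CPM with and 169.8 ± 7.30 CPM without Doxy (SD, n = 3). IL4R (0.53), the kinase gene PIM1 (0.30) and CEBPB (0.74), which encodes C/EBPβ, rose as well. CEBPB only just passed (adjusted p = 0.0497 by edgeR) and lost the call in 5 of 6 fits that left out 1 library. MCL1, which encodes an anti-apoptotic protein, fell by 0.37 on the log2 scale (adjusted p = 9.19e-05 by edgeR). At 3% O2, BCL6 was the only gene of the list to pass, with 7 genes at an unadjusted p under 0.05. The list counts depended on the GC trend: with it taken out, 12 genes were higher and 1 lower at 20% O2 and 6 were higher at 3% O2, and with the 3 libraries left out 9 were higher and 1 lower at 20% O2, and 6 higher and 1 lower at 3% O2. At 3% O2 both of these fits also called more of all tested genes. For 20% O2 the share of all tested genes in them is not given here, so nothing is read from these list counts. The median of the list was 0.27 at 20% O2 and 0.26 at 3% O2, beside 0.01 and 0.04 over all genes.

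Hepatic acute-phase genes, the classical targets of IL-6 and STAT3 in liver, were not expressed in these cells: none of 13 genes passed the filter on low counts, 3 had 0 counts in every library and the highest single value was 10 counts, for C3.

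Of 10 genes for proteins that control the decay of cytokine mRNA, 3 fell and 1 rose upon FDX2 loss at 20% O2. Together these were likewise near the share of all tested genes in either direction (35.3%). KHSRP, which recruits decay enzymes to AU-rich elements, fell by 0.88 on the log2 scale (adjusted p = 0.00217 by edgeR), the means being 577 ± 122 CPM with and 314 ± 14.6 CPM without Doxy (SD, n = 3). Its transcript has 59.2% GC, and the library with a GC trend was the highest with Doxy (717 CPM, against 523 and 490). Libraries without Doxy had at most 324 CPM. HNRNPD, or AUF1 (-0.62, adjusted p = 6.32e-05 by edgeR), and ELAVL1, or HuR, which stabilizes such mRNAs (-0.53, adjusted p = 0.00029 by edgeR), fell too. RC3H2, or Roquin-2, rose by 0.30 (adjusted p = 0.0134 by edgeR), a call lost without replicate 1 of 20% O2 + Doxy or replicate 3 of 20% O2 wo Doxy. ZC3H12A, or Regnase-1, the nuclease known to degrade IL6 mRNA, had means of 5.31 to 6.33 CPM and a log2 fold change of 0.06 (SE 0.274, adjusted p = 0.889 by edgeR) at 20% O2. At 3% O2 none of the 10 passed, with 2 at an unadjusted p under 0.05 and 1 (ELAVL1) called by DESeq2.

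ADAM17, the sheddase that releases soluble IL-6 receptor, had 689, 681 and 879 counts in 20% O2 + Doxy, 975, 972 and 905 in 20% O2 wo Doxy, 798, 606 and 733 in 3% O2 + Doxy and 596, 589 and 782 in 3% O2 wo Doxy. It rose by 0.33 on the log2 scale at 20% O2 (SE 0.0677, adjusted p = 0.00299 by edgeR), while its log2 fold change at 3% O2 was -0.02 (SE 0.0684). ADAM10, RHBDF1 and RHBDF2, the remaining 3 genes for sheddases and their cofactors, did not pass at 20% O2, although RHBDF1 passed after the GC trends were taken out.

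**Figure D5:**
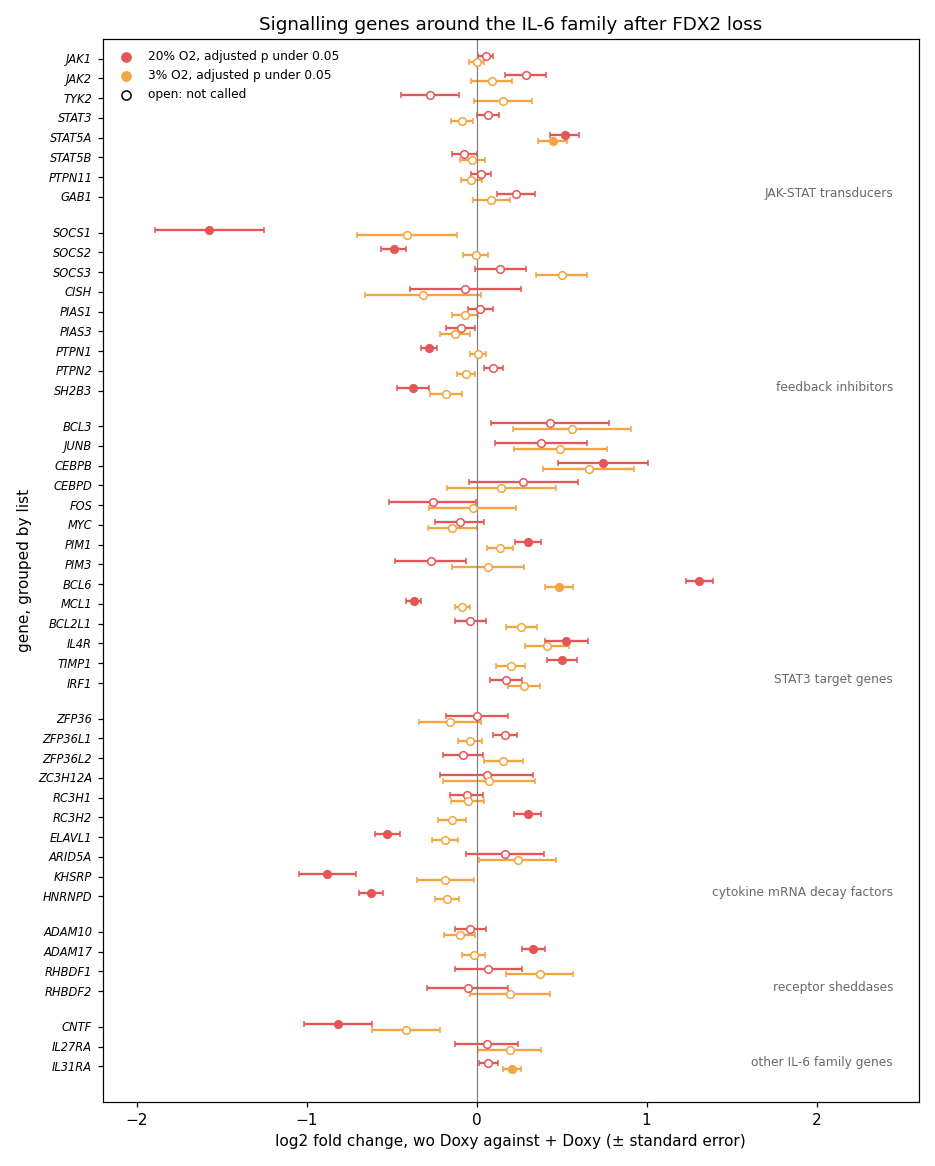
Log2 fold changes upon FDX2 loss (points) with standard errors (bars) at 20% O2 (red) and 3% O2 (orange) for tested genes of 6 lists; filled points had an adjusted p under 0.05 in edgeR's test and open points did not. BCL6 (1.31) and SOCS1 (-1.57) have the largest called values at 20% O2; SOCS3 is drawn once, among the inhibitors.

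Comparing 3% with 20% O2 in the presence of Doxy, none of the genes of these lists passed edgeR's test or DESeq2's, and 1 (SOCS1) had an unadjusted p under 0.05 in edgeR's. Of all 16891 tested genes, 2.02% passed edgeR's test there and 2193 had an unadjusted p under 0.05 in it. Without Doxy, 4360 of the 16891 tested genes passed edgeR's test (25.8%), 2012 of them lower at 3% O2 (11.9% of all tested genes) and the rest higher. In that comparison, 4 inhibitors were higher at 3% O2 (SOCS1 by 1.98, SOCS2 by 0.35, PTPN1 by 0.24 and SH2B3 by 0.34 on the log2 scale) and PTPN2 was lower (-0.22). Further, BCL6 (-0.70), RC3H2 (-0.44) and ADAM17 (-0.35) were lower at 3% O2, and BCL2L1 (0.46), MCL1 (0.28), KHSRP (0.76), HNRNPD (0.37) and ELAVL1 (0.37) were higher, each with an adjusted p under 0.05 in edgeR's test. The calls of PTPN2 and SH2B3 were lost without replicate 2 or 3 of 20% O2 wo Doxy and without replicate 2 of 3% O2 wo Doxy, and that of SH2B3 also without replicate 3 of 3% O2 wo Doxy. With the GC trends taken out, the values were 0.24 for BCL2L1, 0.48 for KHSRP, 0.17 for SH2B3 and -0.11 for PTPN2. The SOCS1 transcript has 69.1% GC, and its counts were only 15, 17 and 17 in 20% O2 wo Doxy. The GC trend was -0.34 to -0.19 in that condition and 0.04 to 0.41 in 3% O2 wo Doxy. It thus ran in the direction of the SOCS1 difference, for which no value without the trend is given here. Of the exonic bases of BCL2L1, 43.0% are shared with transcripts on the opposite strand. This comparison and that of FDX2 loss at 20% O2 use the same 3 libraries of 20% O2 wo Doxy, so their values are not independent of each other.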

How the data were processed

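RNA from FDX2-iKO ES2 cells was sequenced in 12 libraries, 3 biological replicates in each of 4 conditions. The authors deposited read counts per gene from STAR and featureCounts on GRCh38 (their own normalisation used DESeq2), not normalized, and the versions of STAR and featureCounts and the strand setting are not given in the sources used here. For replicates 1 and 2 of 20% O2 + Doxy, 1 FASTQ of each pair was not archived, but their counts were used. All 58735 gene IDs matched GENCODE 29, and 58207 had a symbol. Genes passing filterByExpr (minimum count 10, minimum total 15) were scaled by the trimmed mean of M values and tested with edgeR 4.0.16 (R 4.3.3) in a quasi-likelihood fit of 4 condition means to all 12 libraries. p-values were Benjamini-Hochberg adjusted over 16891 genes, with a threshold of 0.05. DESeq2 1.42.0, other filters and scalings, fits to the compared libraries, a replicate block and omission of each library were the alternatives, and a GC offset (lowess, span 0.3), omission of the 3 libraries with the highest GC trend and the block on the compared libraries were chosen after seeing the data. The scripts were tested on simulated counts. The members and gene lists were chosen with earlier results of these data known, so the lists' calls are not independent evidence. Named pathway genes were those past the threshold, plus SOCS3, STAT3, JAK1, JAK2, ADAM17 and ZC3H12A, and for likeness the 3 closest genes of at least 5 mean CPM. Replicates sharing a number correlated over 0.1 in every pair only between 3% and 20% O2 without Doxy (0.249 to 0.409, against -0.472 to 0.0968 for other pairs), and in no label is a shared batch given. Library totals limit the precision of low genes. A few genes counted in the lists are not reported here by name.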

Additional observations from a re-analysis of the deposited data

Results flagged for a closer look

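The response to FDX2 loss differed between 3% and 20% O2 for 7 genes of the pathway lists, of which 6 are described, by the interaction term of the quasi-likelihood fit in edgeR, adjusted by Benjamini-Hochberg over all genes. Of all 16891 tested genes, 7.29% passed this test in either direction. The difference (3% minus 20% O2, log2) was -0.83 for BCL6 (adjusted p = 0.0022) and -0.44 for RC3H2 (adjusted p = 0.0396). It was 0.48 for SOCS2 (adjusted p = 0.0197), 0.45 for HNRNPD (adjusted p = 0.0224), 0.29 for MCL1 (adjusted p = 0.0209) and 0.29 for PTPN1 (adjusted p = 0.0217). BCL6 kept its call in each of the 12 fits that left out 1 library and with the replicate block. The other 5 described lost it with the block and in 5 (SOCS2), 6 (MCL1 and HNRNPD), 8 (PTPN1) or 9 (RC3H2) of those 12 fits.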

How the results depend on the processing

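No value changed sign where it was called. Of the alternatives' values for the 9 genes, 663 moved by less than the spread between replicates and 23 by more, and of those for called pathway genes 564 stayed on their side of the threshold and 87 lost the call. For FDX2 loss at 20% O2, 5961 genes were called (4423 to 5575 with 1 library left out), with 6 members (4 to 6) and 18 genes of the pathway lists (31 with the GC offset). For FDX2 loss at 3% O2, 1235 genes were called, against 1944 with DESeq2, 3258 with the GC offset, 218 with the compared libraries only, 678 with no filter, 2610 with the 3 libraries of highest GC trend left out and 581 to 1605 with 1 left out. Of the members 0 were called there, against 1 with DESeq2, 2 with the GC offset and 1 without those 3 libraries, and of the pathway lists 3, against 5, 12 and 14, with 0 for the compared libraries only, 1 with no filter and 1 to 7 with 1 library left out. Between 3% and 20% O2 with Doxy, 341 genes were called, against 629 with DESeq2, 1264 with the GC offset, 128 with the compared libraries only, 520 without the 3 libraries and 190 to 388 with 1 left out. The 1 member called became 2 with DESeq2, the GC offset, at least 10 counts in every library or the 3 libraries left out, and 0 with the compared libraries only or no filter (0 to 2 with 1 left out), and the GC offset called 2 pathway genes in place of 0. Without Doxy, 4360 genes were called (2321 to 4200 with 1 library left out), with 4 members (1 to 4) and 14 pathway genes (23 with the GC offset). For the difference of the responses, 1231 genes were called, against 1916 with DESeq2, 3090 with the GC offset, 672 with no filter, 2568 without the 3 libraries and 520 to 2191 with 1 left out. The 3 members called there became 5 with the GC offset (2 to 3 with 1 left out), and the 7 pathway genes 16, or 2 with no filter (1 to 12 with 1 left out). For FDX2 loss at 20% O2, and between 3% and 20% O2 without Doxy over all 12 libraries, the number of all genes called with the GC offset is not given here. Apart from the counts that follow from fewer samples or another set of genes tested, the cause was not tested.

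With the replicate number as a block, 676 genes were called for FDX2 loss at 3% O2, 218 between 3% and 20% O2 with Doxy and 615 for the difference, where 1 pathway gene passed. Between 3% and 20% O2 without Doxy, the comparison in which same-numbered replicates deviated together, the block over 12 libraries called 3203 genes and 3 members, that over the 6 compared libraries 5081 genes and 4 members, and the latter with the GC offset 4435 genes and 5 members. Counts of 4 to 39 for IL6, IL6R and IL11RA limit what can be read from these genes.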
